A study of Mus musculus with 12 samples.

Results

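Histone lysine methylation writers and erasers were taken as 45 genes listed by symbol, out of 22290 genes listed at both ages, and all 45 had a row in both count tables. They comprised 29 genes for SET-domain and DOT1L methyltransferases and the core of Polycomb repressive complex 2 (PRC2), and 16 genes for demethylases; the main H3K36 enzymes, among them Nsd2, were kept out of the set. RNA was from primary cultures of podocytes, cells of the kidney filter that wrap its capillaries, taken from mice made diabetic with a high-fat diet and streptozotocin (HFD/STZ). The design had 4 groups of 3 libraries each: knockout mice (Cre+/Nsd2fl/fl, Nsd2 deleted by a Cre recombinase acting in podocytes) at 28 weeks of age, floxed mice without Cre (Cre-/Nsd2fl/fl) at 28 weeks, and the same pair of genotypes at 20 weeks. Every group had the diabetes model and carried the floxed alleles, so no library came from a non-diabetic or a non-floxed mouse. The Cre driver is given only as podocyte-specific, and whether each library is from its own animal is not stated, so the p-values measure a spread between libraries that could be technical.

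Histone lysine methylation is a chromatin mark whose effect depends on the residue: methylated H3K4 sits at promoters and enhancers of active genes, H3K79 and H3K36 along transcribed genes, and H3K9, H3K27 and H4K20 largely in repressed or compacted chromatin. Writers transfer methyl groups from S-adenosylmethionine. Erasers remove them either by amine oxidation (the LSD enzymes Kdm1a and Kdm1b) or with iron and 2-oxoglutarate (the Jumonji enzymes). NSD2, the deleted enzyme, is an H3K36 dimethyltransferase, and the comparison asked what the RNA of the other writers and erasers did in its absence.

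Library totals were 31405349 to 38989180 counts. Nsd2 itself had 35.2, 35.2 and 42.9 CPM (counts scaled to the library total by TMM) in knockout podocytes at 28 weeks, against 87.2, 77.6 and 80.1 CPM in controls (log2 fold change -1.11, SE 0.13, adjusted p = 0.00431). At 20 weeks it had 51.7, 34.1 and 44.96 CPM in knockouts, against 94.2, 66.6 and 78.99 CPM in controls (log2 fold change -0.88, SE 0.21, adjusted p = 0.0402), and this call was lost without any 1 library other than knockout library 1 (adjusted p from 0.0274 to 0.164), and also when genes under 1 CPM were left out (adjusted p = 0.0562). Nsd2 RNA was thus lower in every knockout library, and remained present. All 19 podocyte markers were detected in every group. At 28 weeks they summed to 2465–5257 CPM in knockouts, against 3265–6185 CPM in controls (2 of 19 called lower). At 20 weeks the sums were 5848–7247 CPM, against 3011–4399 CPM (9 of 19 called higher). Nphs1 had 1.44, 3.49 and 0.914 CPM in knockouts, against 15.2, 8.39 and 8.56 CPM in controls at 28 weeks. Its log2 fold change of -2.46 was the lowest of the 19, of which 12 were negative and 7 positive. Without Actn4, the other 18 summed to 1703, 4230 and 3470 CPM in knockouts, against 4683, 2426 and 2508 CPM in controls at 28 weeks. Marker lists of other cells moved with genotype: 12 smooth muscle, pericyte and mesangial genes summed to 7130–16357 CPM in knockouts, against 3073–3314 CPM in controls at 28 weeks (5 of 12 called higher), and 10 leukocyte genes to 644–843 CPM, against 86.0–114 CPM (3 of 10 called higher). Lyz2 alone made up 505, 661 and 785 CPM of the leukocyte sums in knockouts, and the other 9 genes summed to 138, 136 and 57.5 CPM in knockouts, against 37.6, 62.7 and 62.3 CPM in controls. The 16 tubule and simple epithelial genes summed to 7307, 155 and 674 CPM in knockout libraries 1, 2 and 3 at 28 weeks, against 4182, 6946 and 7032 CPM in controls (4 of 14 tested called lower), with Aqp2 and Slc34a1 at 0 in both groups. Krt8 alone made up 5545 CPM of the sum in knockout library 1, and the other 15 genes summed to 1762, 125 and 478 CPM in knockouts, against 4071, 4593 and 4656 CPM in controls. At 20 weeks the epithelial sums were 308–2004 CPM in knockouts, against 3056–6042 CPM in controls (5 of 12 tested called lower), and the smooth muscle sums 9995–14123 CPM, against 4453–5030 CPM (10 of 12 called higher). Fewer cells of a type and less RNA per cell cannot be told apart in such bulk samples. Control libraries 2 and 3 at 28 weeks were much closer to each other than any other pair, with a biological coefficient of variation of 0.0472, against 0.219 to 0.414 in the other 11 pairs.

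Per kilobase of gene length, the members' mean levels ran from 50.3 FPKM to 0.0682 FPKM. Setd3, which methylates a histidine of actin as well as having been described as a histone enzyme, had the highest mean, 50.3 FPKM (reads scaled to gene length and library total) over the 12 libraries. It was followed by Kmt5a, the H4K20 monomethyltransferase, with 48.1 FPKM, and Kdm1a (LSD1), which demethylates mono- and dimethylated H3K4, with 37.8 FPKM. Eed, the PRC2 subunit that binds trimethylated H3K27, had 26.3 FPKM and Smyd2, a methyltransferase with histone and non-histone substrates, 23.7 FPKM. Neighbours in this order were not clearly apart: Setd3 ranged from 43.9 to 59.8 FPKM and Kmt5a from 40.7 to 54.3 FPKM, and the ranges of Eed (21.0 to 29.1 FPKM) and Smyd2 (20.1 to 27.8 FPKM) overlapped as well. Below 1 FPKM were Kdm8 (0.896), Setd4 (0.874), Suv39h2 (0.827) and Setdb2 (0.0682). Setdb2 had 1 to 18 counts per library and did not pass the filter on low counts at either age, so 44 of 45 members were tested in each knockout comparison.

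Related enzymes differed in level. Of the H3K9 methyltransferases, Ehmt2 (G9a) had a mean of 22.5 FPKM, and its partner Ehmt1 (GLP) had 9.11 FPKM. Setdb1, which silences retroelements with KAP1, had 9.53 FPKM and Suv39h1, the pericentromeric enzyme, 6.44 FPKM. Among the catalytic subunits of PRC2, Ezh2 averaged 8.68 FPKM and ranged from 3.75 to 11.5 FPKM, and Ezh1 averaged 5.68 FPKM within a range of 3.69 to 8.78 FPKM, so the pair overlapped between libraries. The KMT2 and SET1 genes ran from 1.39 FPKM for Kmt2c to 8.06 FPKM for Kmt2e, and the H3K4 monomethyltransferase gene Setd7 had 22.0 FPKM.

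**Figure D1:**
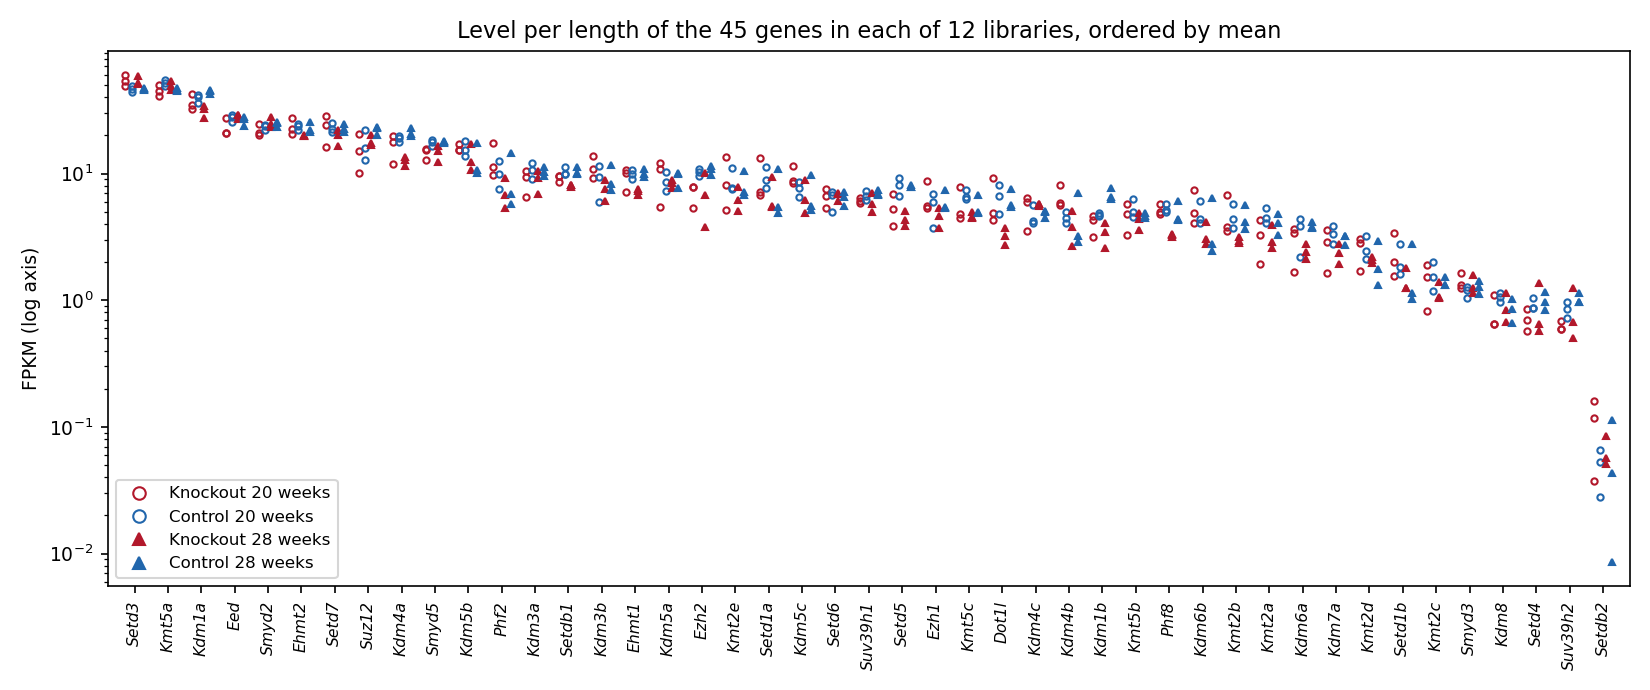
Level of each of the 45 genes in each of the 12 libraries, in FPKM on a log axis, ordered by the mean over libraries; points are libraries and colours and shapes mark the 4 groups. Setd3, at a mean of 50.3 FPKM, stands at one end and Setdb2, at 0.0682 FPKM, at the other, and the groups overlap for most genes.

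At 28 weeks, 5 members were called, all lower in knockouts: the methyltransferase genes Dot1l and Setd5 and the demethylase genes Kdm1b, Kdm4a and Kdm6a. They made up 11.4% of the 44 tested, while 21.2% of all 15011 genes tested were called in either direction (edgeR quasi-likelihood test, Benjamini-Hochberg adjusted p below 0.05). For lower calls alone the background was 11.9%, so the members' share of called genes was near it. No member was called higher by edgeR, against 9.33% of all genes; DESeq2 called 2 members higher, Setd3 and Kdm4c, and 9 lower. The median log2 fold change was -0.16 over the members and 0.07 over all genes, and 32 of 44 members had a negative value (72.7%), against 44.97% of all genes. The count of negative members was 26 of 44 with a correction for GC content and also without control library 1, and the member median was -0.069 without control library 1 and -0.31 without knockout library 3. Member changes had a median size of 0.19, against 0.37 over all genes, which were not matched to the members for level. The members' transcripts were longer, with a median of 5240.5 bases, against 3068 over the genes tested. Log2 fold change at 28 weeks fell with log2 transcript length, with a correlation of -0.20 over members and -0.17 over all genes. The part of length in the members' lean to lower values was not tested.

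Dot1l encodes the sole known H3K79 methyltransferase. It had 33.7, 28.7 and 24.1 CPM in knockouts, against 65.2, 46.6 and 45.5 CPM in controls at 28 weeks. All knockout libraries lay below all control libraries, with means of 28.9 ± 4.78 CPM in knockouts and 52.4 ± 11.1 CPM in controls (SD, n = 3 each). Its level fell by 44.98% (log2 fold change -0.86, SE 0.20, adjusted p = 0.0275). Setd5 encodes a SET-domain protein that is part of corepressor complexes with HDAC3 and whose own methyltransferase activity is disputed. It had 67.3, 74.7 and 85.3 CPM in knockouts, against 137, 124 and 127 CPM in controls. The highest knockout library was below the lowest control library, and the level averaged 75.8 ± 9.05 CPM in knockouts and 129 ± 6.71 CPM in controls (SD, n = 3 each). Setd5 fell by 41.3% (log2 fold change -0.77, SE 0.12, adjusted p = 0.00913).

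Among the erasers, Kdm1b (LSD2), which removes H3K4 methylation within gene bodies and sets maternal imprints in oocytes, had 19.8, 12.6 and 16.5 CPM in knockouts, against 36.4, 28.1 and 29.7 CPM in controls. It fell by 48.2%, the most of the called members (log2 fold change -0.95, SE 0.20, adjusted p = 0.0216). Kdm4a, a Jumonji eraser of trimethylated H3K9 and H3K36, had 60.5, 71.9 and 66.9 CPM in knockouts, against 116, 95.97 and 102 CPM in controls, and fell by 36.6% (log2 fold change -0.66, SE 0.12, adjusted p = 0.0143). Kdm6a (UTX), an X-linked eraser of H3K27 methylation that is also a subunit of the KMT2C and KMT2D complexes, had 19.1, 21.7 and 24.5 CPM in knockouts, against 36.3, 30.8 and 31.9 CPM in controls, and fell by 33.99% (log2 fold change -0.60, SE 0.14, adjusted p = 0.0311). In all 3 erasers, too, no knockout library reached the lowest control library. The share of all genes whose groups separate in this way was not counted, here or for the genes below. At 28 weeks 34.8% of all genes had an unadjusted p below 0.05, and 12 of 44 members did.

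These calls differed in how far they rested on single libraries. Setd5 kept its call without any 1 of the 6 libraries, with adjusted p from 0.00943 to 0.0446. Kdm4a lost it without control library 3 (adjusted p = 0.0591). Kdm1b lost it without any 1 control library, Dot1l without any 1 control library or knockout library 2, and Kdm6a without any 1 library other than knockout library 3. Without control libraries 1, 2 and 3 in turn, 2, 2 and 1 members were called, and without knockout library 2, 3 members. With the similar control libraries 2 and 3 summed to 1, Setd5 alone was called. Calls over all genes fell as well, from 3183 to 1973, 1288 and 1266 without control libraries 1, 2 and 3. They fell to 2057 without knockout library 2 and to 1299 with the summed controls, so the losses were not particular to the members. The direction was the same for the 5 genes under each of these settings.

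Marker genes of other cells moved with genotype at the same age. The 3 knockout libraries at 28 weeks differed in these sums: without Krt8, epithelial genes summed to 1762 CPM in knockout library 1, against 125 and 478 CPM in knockout libraries 2 and 3, and without Tagln, smooth muscle genes summed to 3002 CPM in library 1, against 8278 and 6874 CPM. In each of the 3 libraries the 5 called genes were below the lowest control library. These genes were called from the same libraries, so their separation follows largely from that selection. Smooth muscle sums were higher in all 3 knockouts than in any control with or without Tagln, at 1584–1752 CPM without it in controls, whereas the leukocyte sum without Lyz2 in knockout library 3 lay within the controls. Leaving out Actn4, Krt8, Tagln and Lyz2, the most abundant gene of each list, was decided after their values were seen. The part of these cells' RNA in the 5 differences was not tested.

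**Figure D2:**
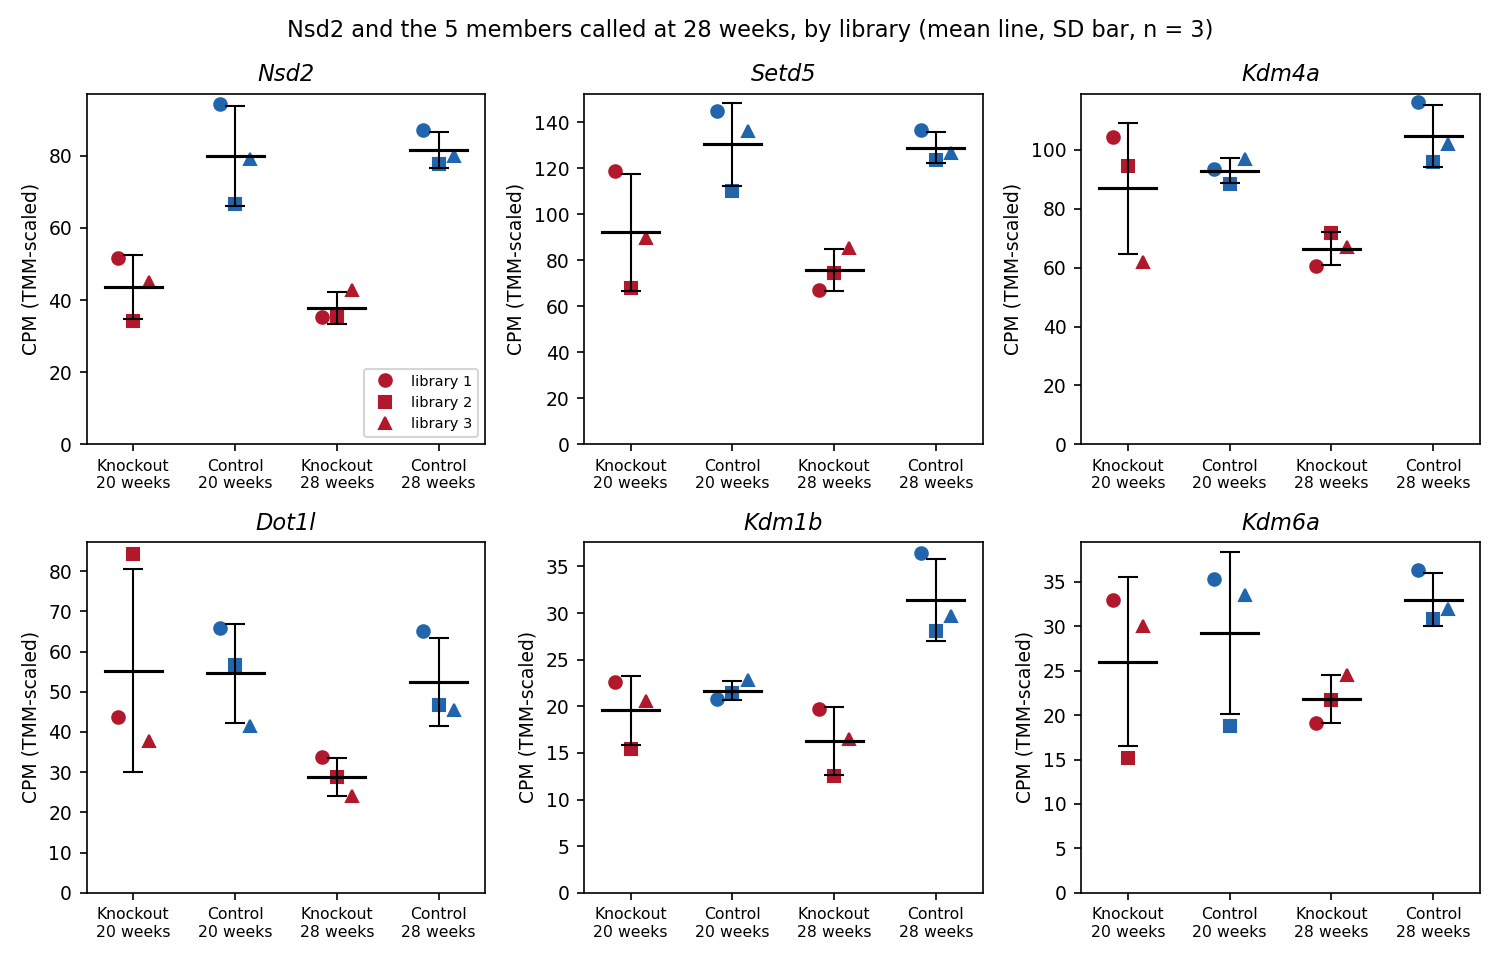
Level in each library, in CPM scaled by TMM, of Nsd2 and of the 5 members called at 28 weeks; points are libraries, lines the group means and bars the SD (n = 3), with knockouts left of controls at each age. At 28 weeks the 3 knockout points lie below the 3 control points in every panel, as with 67.3 to 85.3 CPM, against 124 to 137 CPM, for Setd5, while at 20 weeks the groups overlap for the members.

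Counting left some doubts for X-linked and overlapping genes. Kdm6a has a close Y-linked relative, Uty, between which reads could be split. Uty had 63.1, 45.99 and 32.00 CPM in knockouts, against 21.3, 39.05 and 46.99 CPM in controls at 28 weeks (log2 fold change 0.39, SE 0.35, adjusted p = 0.490), so its groups overlapped. Kdm1b shares 505 exon bases, 9.19% of its exon length, with Dek on the opposite strand, and the sources used here do not give the strand setting of the counting. Dek, which encodes a chromatin architectural protein, had 54.5, 73.7 and 54.97 CPM in knockouts, against 80.1, 67.4 and 73.2 CPM in controls (log2 fold change -0.27, SE 0.16, adjusted p = 0.284). Similar overlaps make the values of Setd1a (51.8% of exon bases shared with Gm49388 on the same strand), Smyd2 (30.0%, Gm37422, opposite strand) and Kdm3b (24.6%, Gm26538, opposite strand) less certain.

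The promoters of the 5 called genes are shown because these genes fell together; they are windows of 300 bases in build GRCm38.p6 from RefSeq, from 250 bases before to 50 after the start, with GC boxes (GGGCGG on either strand, the recognition core of SP1-type factors) in capitals. Dot1l lies at chr10:80754953-80755252 (plus strand), Kdm1b at chr13:47043249-47043548 (plus), Kdm4a at chr4:118179994-118180293 (minus), Kdm6a at chrX:18162325-18162624 (plus) and Setd5 at chr6:113104685-113104984 (plus). The Setd5 window is that of an internal start, 27570 bases past the annotated start of the gene.
Dot1l: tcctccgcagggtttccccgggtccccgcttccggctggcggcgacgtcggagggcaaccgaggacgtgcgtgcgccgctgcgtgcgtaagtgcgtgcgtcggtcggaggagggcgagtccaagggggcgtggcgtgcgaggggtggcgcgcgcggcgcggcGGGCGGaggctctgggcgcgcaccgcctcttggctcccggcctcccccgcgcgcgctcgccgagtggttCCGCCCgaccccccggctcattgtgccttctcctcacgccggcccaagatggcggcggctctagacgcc
Kdm1b: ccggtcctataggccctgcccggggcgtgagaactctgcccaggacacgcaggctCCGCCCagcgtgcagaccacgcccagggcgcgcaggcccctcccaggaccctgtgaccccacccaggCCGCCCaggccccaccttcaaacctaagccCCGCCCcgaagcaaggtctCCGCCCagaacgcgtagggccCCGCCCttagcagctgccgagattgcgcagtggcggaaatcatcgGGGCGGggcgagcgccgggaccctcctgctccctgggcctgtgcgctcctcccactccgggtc
Kdm4a: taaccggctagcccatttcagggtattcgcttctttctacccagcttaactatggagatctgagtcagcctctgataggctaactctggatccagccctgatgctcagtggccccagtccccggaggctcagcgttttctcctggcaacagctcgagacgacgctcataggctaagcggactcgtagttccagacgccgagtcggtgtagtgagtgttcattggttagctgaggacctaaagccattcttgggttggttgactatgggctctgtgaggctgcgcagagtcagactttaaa
Kdm6a: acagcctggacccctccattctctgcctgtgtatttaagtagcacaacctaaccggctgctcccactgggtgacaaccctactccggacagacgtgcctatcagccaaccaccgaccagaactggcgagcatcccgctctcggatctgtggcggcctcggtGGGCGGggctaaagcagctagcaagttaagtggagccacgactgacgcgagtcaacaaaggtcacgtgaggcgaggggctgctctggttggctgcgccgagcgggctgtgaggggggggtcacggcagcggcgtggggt
Setd5: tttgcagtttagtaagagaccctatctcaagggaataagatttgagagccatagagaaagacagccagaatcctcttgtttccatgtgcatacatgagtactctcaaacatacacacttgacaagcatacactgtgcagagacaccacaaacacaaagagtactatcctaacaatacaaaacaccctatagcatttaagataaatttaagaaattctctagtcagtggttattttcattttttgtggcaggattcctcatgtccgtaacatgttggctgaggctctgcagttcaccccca

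The windows have little in common. Kdm1b holds 6 GC boxes, Dot1l 2, Kdm6a 1, and Kdm4a and Setd5 none; CpG dinucleotides number 49 in Dot1l, 26 in Kdm1b, 21 in Kdm6a, 13 in Kdm4a and 1 in the internal Setd5 window. RefSeq windows were matched for 37 of 45 members, 46 windows in all. A GC box was in 32 of 46 member windows, against 11714 of 32851 mouse promoters (35.7%). CCAAT was in 20 of 46, against 12289 of 32851 (37.4%). As some genes have more than 1 window, 25 of 37 genes held a GC box and 17 of 37 held CCAAT. The motif GGAATG, bound by TEAD factors of the Hippo pathway, was in 1 member window, that of Setd1a, against 14.7% of all promoters, and in none of the 5 shown. Member windows had a median of 28 CpG dinucleotides, against 7 over all promoters. All 3 motifs were searched on both strands, and a match or its absence is a description of these letters only.

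The 8 genes listed as H3K4 methyltransferases, Kmt2e among them, had no call at 28 weeks, beside 21.2% of all genes tested. A list of 8 is too small to be set apart from that share. Their median log2 fold change was -0.16. Kmt2b (MLL2), which deposits H3K4 trimethylation at bivalent promoters, had the lowest value, with 29.5, 27.1 and 25.7 CPM in knockouts, against 50.4, 35.7 and 31.96 CPM in controls (log2 fold change -0.52, SE 0.19, adjusted p = 0.111). Its knockout libraries lay below all controls. The trithorax relative Kmt2e had a log2 fold change of -0.28 and Setd7 -0.15. Kmt2a (MLL1) had a log2 fold change of -0.29, Kmt2c -0.17 and Kmt2d 0.12, and the SET1 enzymes Setd1a and Setd1b 0.019 and -0.14. These last enzymes varied widely among controls: Setd1a had 64.8, 30.6 and 28.2 CPM and Setd1b 24.9, 8.76 and 9.89 CPM in the 3 control libraries, with library 1 high in both.

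All 5 tested H3K9 methyltransferase genes had negative log2 fold changes at 28 weeks, with a median of -0.26. None was called, beside 21.2% of all genes tested. Ehmt1 (GLP) was just outside the threshold, with 39.9, 44.2 and 41.5 CPM in knockouts, against 60.9, 53.8 and 51.4 CPM in controls (log2 fold change -0.40, SE 0.12, adjusted p = 0.0563). It was called under RLE scaling, DESeq2, both FPKM settings and a correction for GC content. Setdb1 had 39.3, 37.7 and 38.5 CPM in knockouts, against 52.3, 44.2 and 45.7 CPM in controls (log2 fold change -0.30, SE 0.12, adjusted p = 0.121). The groups did not overlap in either gene, whereas Ehmt2 overlapped, with 112, 109.8 and 108 CPM, against 136, 113 and 112 CPM (log2 fold change -0.13, SE 0.12, adjusted p = 0.499). Suv39h1 and Suv39h2, the constitutive heterochromatin enzymes, had -0.15 and -0.26 (adjusted p = 0.554 and 0.666).

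None of the 4 PRC2 core genes was called at either age, beside 21.2% of all genes at 28 weeks and 9.92% at 20 weeks. Ezh2, the catalytic subunit of dividing cells, had 51.3, 19.1 and 33.6 CPM in knockouts, against 47.7, 53.8 and 52.01 CPM in controls at 28 weeks (log2 fold change -0.56, SE 0.33, adjusted p = 0.294). Knockout library 1 was within the control range of 47.7 to 53.8 CPM and libraries 2 and 3 were below it. At 20 weeks the 3 knockout libraries, with 39.7, 27.3 and 38.9 CPM, were all below the controls, with 49.7, 50.1 and 46.6 CPM (log2 fold change -0.47, SE 0.19, adjusted p = 0.168). Eed had 61.6, 57.2 and 60.9 CPM in knockouts, against 49.02, 55.2 and 54.1 CPM in controls at 28 weeks (log2 fold change 0.18, SE 0.11, adjusted p = 0.285), and 44.9, 45.3 and 57.5 CPM, against 55.2, 52.1 and 57.3 CPM, at 20 weeks (log2 fold change -0.16, SE 0.17, adjusted p = 0.636). Suz12 had a log2 fold change of -0.19 at 28 weeks and Ezh1, the paralogue of resting cells, -0.33. At 28 weeks the 21 cell-cycle markers summed to 561–751 CPM in knockouts, against 633–713 CPM in controls; 1 of 21 genes was called, and it was lower in knockouts.

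Of the H4K20 enzymes, Kmt5a had 212, 180.4 and 192 CPM in knockouts, against 171, 167 and 177 CPM in controls at 28 weeks (log2 fold change 0.19, SE 0.11, adjusted p = 0.292), and 162, 198 and 175 CPM, against 184, 204 and 188 CPM, at 20 weeks (log2 fold change -0.11, SE 0.15, adjusted p = 0.736). The 28-week knockout libraries lay above the controls, and the 20-week groups overlapped. Kmt5b and Kmt5c, which add further methyl groups to H4K20, had -0.038 and -0.18 at 28 weeks. Among the other SET and SMYD genes, Setd3 had 152, 176 and 154 CPM in knockouts, against 133, 131 and 129.5 CPM in controls at 28 weeks (log2 fold change 0.30, SE 0.11, adjusted p = 0.102), and 148, 182 and 159 CPM, against 126, 139 and 127 CPM, at 20 weeks (log2 fold change 0.32, SE 0.15, adjusted p = 0.242). At both ages every knockout library was above every control library, and neither difference passed the edgeR test; DESeq2 called Setd3 at 28 weeks (adjusted p = 0.0169). Smyd2 had 54.2, 47.8 and 44.5 CPM in knockouts, against 47.7, 45.02 and 42.1 CPM in controls at 28 weeks (log2 fold change 0.12, SE 0.12, adjusted p = 0.552), and 39.2, 48.3 and 39.9 CPM, against 38.3, 43.5 and 45.2 CPM, at 20 weeks (log2 fold change 0.0042, SE 0.16, adjusted p = 0.993). Both pairs of Smyd2 groups overlapped, and the sign at 20 weeks turned under 7 of 15 alternative settings. Of the others, Setd4 had a log2 fold change of -0.10, Setd6, which methylates the NF-kappaB subunit RelA, 0.13, Smyd3 0.15 and Smyd5 -0.19 at 28 weeks. At 20 weeks Smyd3 had 13.4, 17.8 and 13.7 CPM in knockouts, against 10.1, 12.2 and 13.1 CPM in controls (log2 fold change 0.35, SE 0.21, adjusted p = 0.373), with no overlap.

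Kdm1a, the other LSD demethylase, had 113, 90.7 and 104 CPM in knockouts, against 144, 135 and 129.9 CPM in controls at 28 weeks (log2 fold change -0.41, SE 0.12, adjusted p = 0.0558). The groups did not overlap, and the gene was called under DESeq2, both FPKM settings and without knockout library 1. At 20 weeks it had 140.4, 116 and 103 CPM in knockouts, against 123, 112 and 128 CPM in controls (log2 fold change -0.012, SE 0.17, adjusted p = 0.980), and this near-zero value turned positive under 4 of 15 alternatives. The Kdm5 erasers of H3K4 trimethylation had log2 fold changes of -0.073 (Kdm5a), 0.15 (Kdm5b) and 0.035 (Kdm5c) at 28 weeks. Kdm5d, the Y-linked relative of Kdm5c, had a log2 fold change of 0.022. Kdm4c, a trimethyl-H3K9 eraser, went the other way from Kdm4a, with 36.8, 38.3 and 37.6 CPM in knockouts, against 28.7, 30.5 and 31.8 CPM in controls (log2 fold change 0.31, SE 0.11, adjusted p = 0.0928). Kdm6b (JMJD3), the inducible H3K27 eraser, had 31.9, 35.3 and 46.6 CPM, against 70.7, 25.8 and 29.8 CPM (log2 fold change -0.15, SE 0.40, adjusted p = 0.836), and its control libraries reached above and below the whole knockout range. Phf8, an X-linked eraser of H4K20 and H3K9 methylation, had 25.1, 24.8 and 23.3 CPM in knockouts, against 44.1, 30.7 and 30.5 CPM in controls (log2 fold change -0.52, SE 0.18, adjusted p = 0.0848), with no overlap. The H3K9 erasers Kdm3a and Kdm3b had log2 fold changes of -0.15 and -0.22, the PHF8 relatives Kdm7a and Phf2 -0.28 and -0.28, and Kdm8 0.14. Just outside the threshold at 28 weeks stood Kdm1a, Ehmt1, Phf8, Kdm4c and Setd3, with adjusted p from 0.0558 to 0.102, and just inside it Kdm6a at 0.0311.

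**Figure D3:**
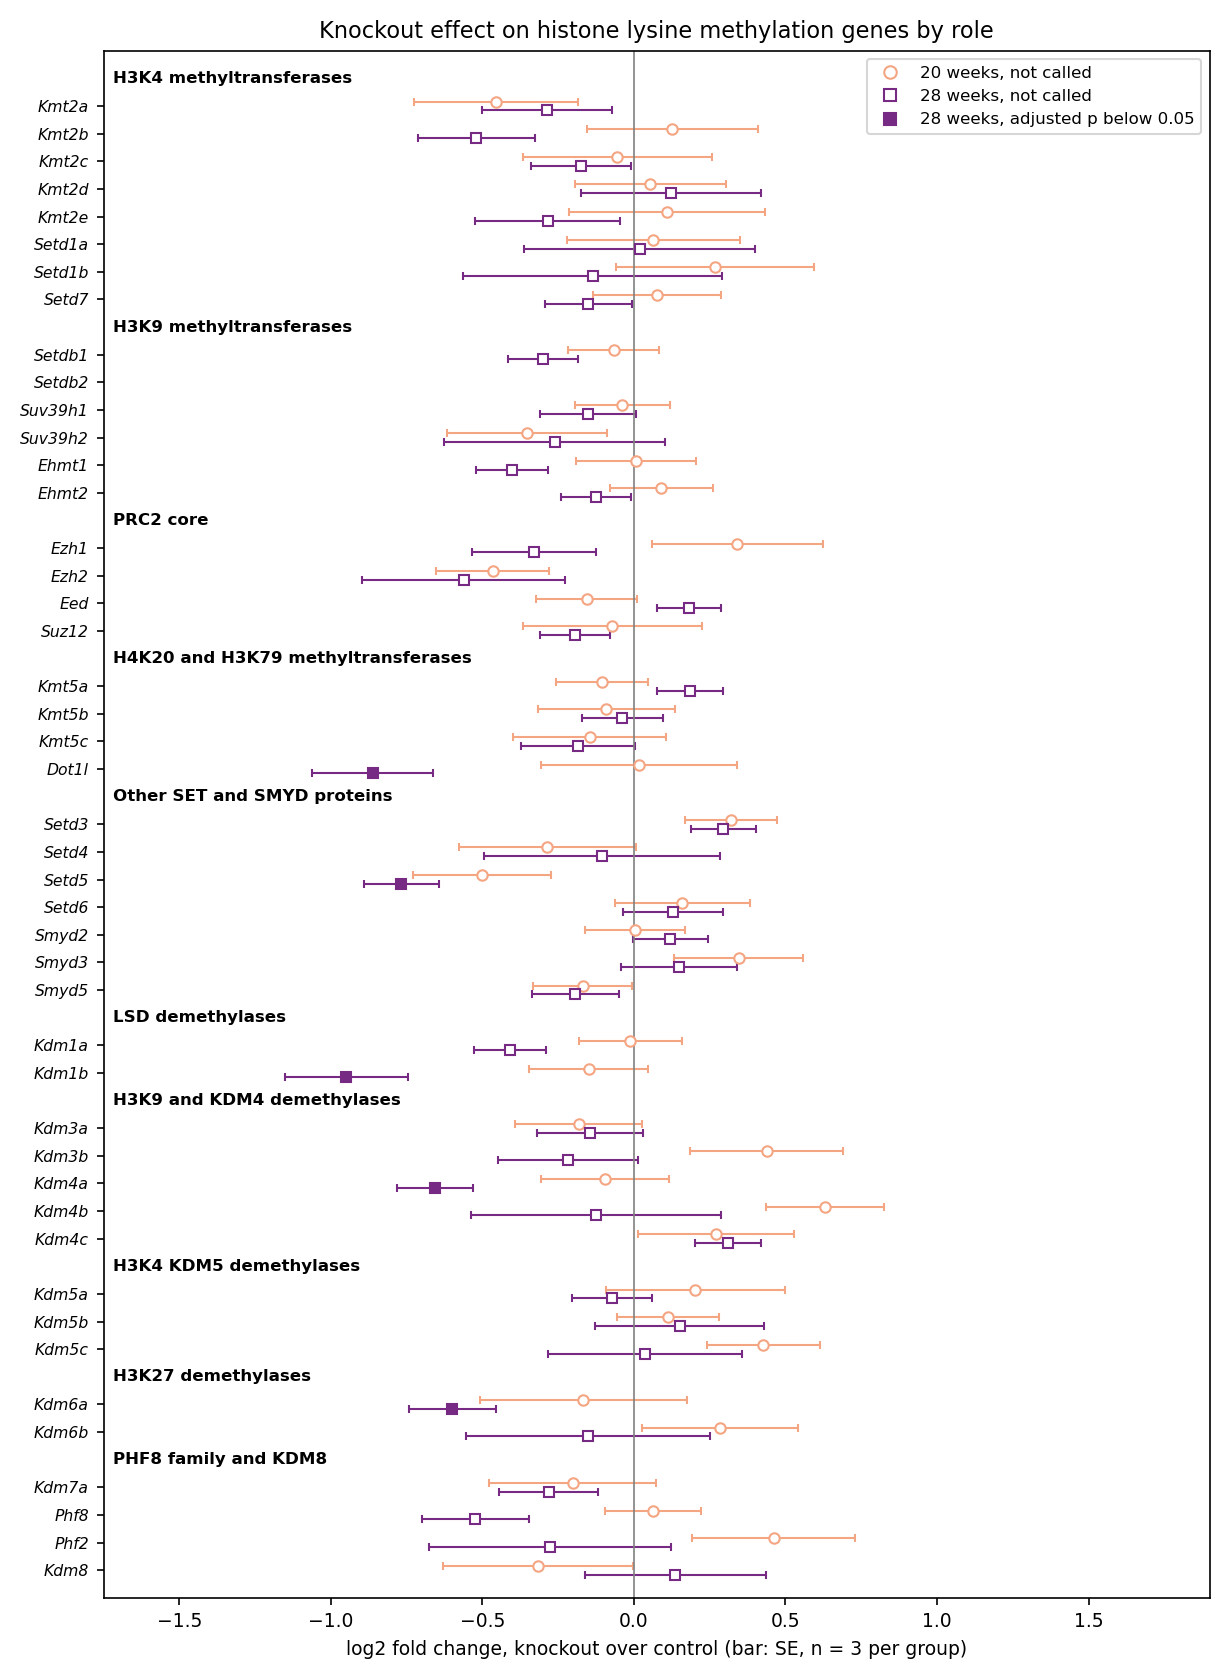
Log2 fold change of knockout over control for each member, grouped by role, at 20 weeks (circles) and 28 weeks (squares); bars are SE (n = 3 per group), filled squares have an adjusted p below 0.05, and Setdb2 was not tested. The 5 filled squares run from -0.60 (Kdm6a) to -0.95 (Kdm1b), and 32 of 44 squares lie below 0, against 21 of 44 circles.

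At 20 weeks no member was called of 44 tested, while 9.92% of all 14853 genes were (edgeR, 4.79% higher and 5.13% lower). An unadjusted p below 0.05 was found for 2 members, against 25.0% of all genes. The median log2 fold change was 0.0057 over the members and 0.01 over all genes, and 21 of 44 members were negative. Kdm4b, an eraser of H3K9 and H3K36 trimethylation, was nearest to a call, with 35.1, 49.2 and 33.3 CPM in knockouts, against 27.1, 25.3 and 23.7 CPM in controls (log2 fold change 0.63, SE 0.19, adjusted p = 0.0846). All knockout libraries were above all controls, and DESeq2 and the GC correction each called this gene alone, with an adjusted p of 0.0207 under the GC correction. At 28 weeks Kdm4b had 16.1, 22.9 and 29.7 CPM in knockouts, against 41.01, 17.9 and 16.1 CPM in controls (log2 fold change -0.13, SE 0.41, adjusted p = 0.867), with wide overlap. Kdm5c, which lowers H3K4 methylation at enhancers and promoters, had 105, 139 and 98.6 CPM in the 20-week knockouts, against 91.9, 88.03 and 74.5 CPM in the controls (log2 fold change 0.43, SE 0.19, adjusted p = 0.201). Its groups were apart at 20 weeks and overlapped at 28 weeks, with 58.8, 73.7 and 104 CPM in knockouts, against 111, 61.4 and 58.1 CPM in controls.

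None of the 5 genes called at 28 weeks passed the test at 20 weeks. Setd5 had 119, 68.1 and 89.8 CPM in knockouts, against 145, 110.2 and 136 CPM in controls (log2 fold change -0.50, SE 0.23, adjusted p = 0.222), with knockout library 1 inside the control range. Kdm4a had 104, 94.7 and 61.9 CPM, against 93.7, 88.3 and 96.8 CPM (log2 fold change -0.096, SE 0.21, adjusted p = 0.837), and Kdm1b 22.6, 15.4 and 20.6 CPM, against 20.8, 21.4 and 22.8 CPM (log2 fold change -0.15, SE 0.20, adjusted p = 0.711). Both erasers overlapped between genotypes. Dot1l had 43.6, 84.2 and 37.8 CPM in knockouts, against 65.9, 56.5 and 41.5 CPM in controls (log2 fold change 0.016, SE 0.32, adjusted p = 0.987), and Kdm6a 32.9, 15.1 and 30.00 CPM, against 35.4, 18.7 and 33.5 CPM (log2 fold change -0.17, SE 0.34, adjusted p = 0.822). For Dot1l the highest of the 6 libraries was a knockout and so was the lowest.

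Whether the knockout effect differed between ages was tested in one model of the 12 libraries, in which the age coincides with the deposited table. No member of 45 was called, and 0% of 15662 genes were (edgeR); 3 members and 1428 genes had an unadjusted p below 0.05, and DESeq2 called 34 genes and no member. The members nearest to a difference were Kdm1b (difference of log2 fold changes, 28 minus 20 weeks, -0.80, SE 0.29, adjusted p = 0.538), Phf8 (-0.57, SE 0.21, adjusted p = 0.538) and Kdm4a (-0.55, SE 0.25, adjusted p = 0.545). A knockout effect that differed between ages was thus not shown for any member, at adjusted p from 0.264 to 0.935 over the alternatives.

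Age was compared within each genotype in the same model. In knockouts, 28 against 20 weeks, no member was called (0% of all genes by edgeR). Of 45 members, 8 had an unadjusted p below 0.05, as did 1759 of all 15662 genes. Phf8 had 25.1, 24.8 and 23.3 CPM at 28 weeks, against 37.95, 43.98 and 35.6 CPM at 20 weeks (log2 fold change -0.65, SE 0.15, adjusted p = 0.429), and every 28-week library was below every 20-week library. DESeq2 called Phf8 alone among the members (adjusted p = 0.0291). Dot1l had a log2 fold change of -0.89 (SE 0.28, adjusted p = 0.429). For Kmt2b, 29.5, 27.1 and 25.7 CPM at 28 weeks stood against 35.4, 63.02 and 32.1 CPM at 20 weeks (log2 fold change -0.62, SE 0.25, adjusted p = 0.429). The member median was -0.22, against 0.04 over all genes, with 33 of 45 members negative. In controls, 28 against 20 weeks, no member was called either (0% of all genes by edgeR), and DESeq2 called 1 gene and no member. An unadjusted p below 0.05 was found for 1 of 45 members, against 2.98% of all genes. That member was Kdm1b, with 36.4, 28.1 and 29.7 CPM at 28 weeks, against 20.8, 21.4 and 22.8 CPM at 20 weeks (log2 fold change 0.55, SE 0.20, adjusted p = 1.00). The older controls were thus all above the younger controls in this gene. Suz12, the PRC2 scaffold, had 87.4, 94.4 and 98.1 CPM at 28 weeks, against 64.7, 55.4 and 96.8 CPM at 20 weeks (log2 fold change 0.39, SE 0.26, adjusted p = 1.00), and Kmt5a 171, 167 and 177 CPM, against 184, 204 and 188 CPM (log2 fold change -0.15, SE 0.11, adjusted p = 1.00). The control comparison of age and the knockout effect at 28 weeks share the control libraries of 28 weeks, so a high value in those libraries enters both.

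Except in the knockouts at 28 weeks, the members' deviations within groups varied with the GC content of their transcripts. The sign differed between libraries of a group. Across the 44 tested members, the correlation of a library's deviation from its group mean (log2 CPM) with transcript GC was -0.68, 0.82 and -0.69 in knockout libraries 1, 2 and 3 at 20 weeks, and 0.31, 0.44 and -0.58 in controls. At 28 weeks it was -0.09, 0.08 and 0.05 in knockouts, and 0.63, -0.52 and -0.63 in controls. These values describe genes within one library, which share its depth and preparation and are not independent replicates. The 3 deviations of a gene in a group cancel out, so slopes of both signs within a group follow from the calculation. Over all genes the correlation was 0.46 in knockout library 2 at 20 weeks and 0.30 in control library 1 at 28 weeks; in knockout library 3 at 28 weeks it was 0.13, against 0.05 over the members. Some GC-rich members varied widely. Phf2, an H3K9 eraser, had 75.97, 28.9 and 34.9 CPM in the 28-week controls, and Kdm6b had 70.7, 25.8 and 29.8 CPM. Control library 1 was the high one each time. In that library Ehmt2, of 60.8% GC, deviated by 0.18 only, while Kdm5b, of 47.6% GC, deviated by 0.53. Its podocyte sum was also the highest of the 28-week controls, at 6185 CPM, against 3265 and 3364 CPM. Dot1l, of 57.5% GC, reached 84.2 CPM in knockout library 2 at 20 weeks, against 43.6 and 37.8 CPM in the other knockouts. The part of GC content in these single values was not tested.

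Between genotypes the relation to GC content over the members was weaker at 28 weeks than at 20 weeks. The correlation of log2 fold change with transcript GC over members was 0.32 at 20 weeks and 0.07 at 28 weeks, beside 0.01 and -0.12 over all genes. The called genes run from 42.5% GC in Kdm6a to 57.5% in Dot1l. With each library corrected for GC content, an alternative added after the data were seen, the same 5 members were called at 28 weeks and Ehmt1 in addition; the log2 fold change of Dot1l was then -0.69 (adjusted p = 0.0375) and that of Kdm6a -0.75 (adjusted p = 0.0444).

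**Figure D4:**
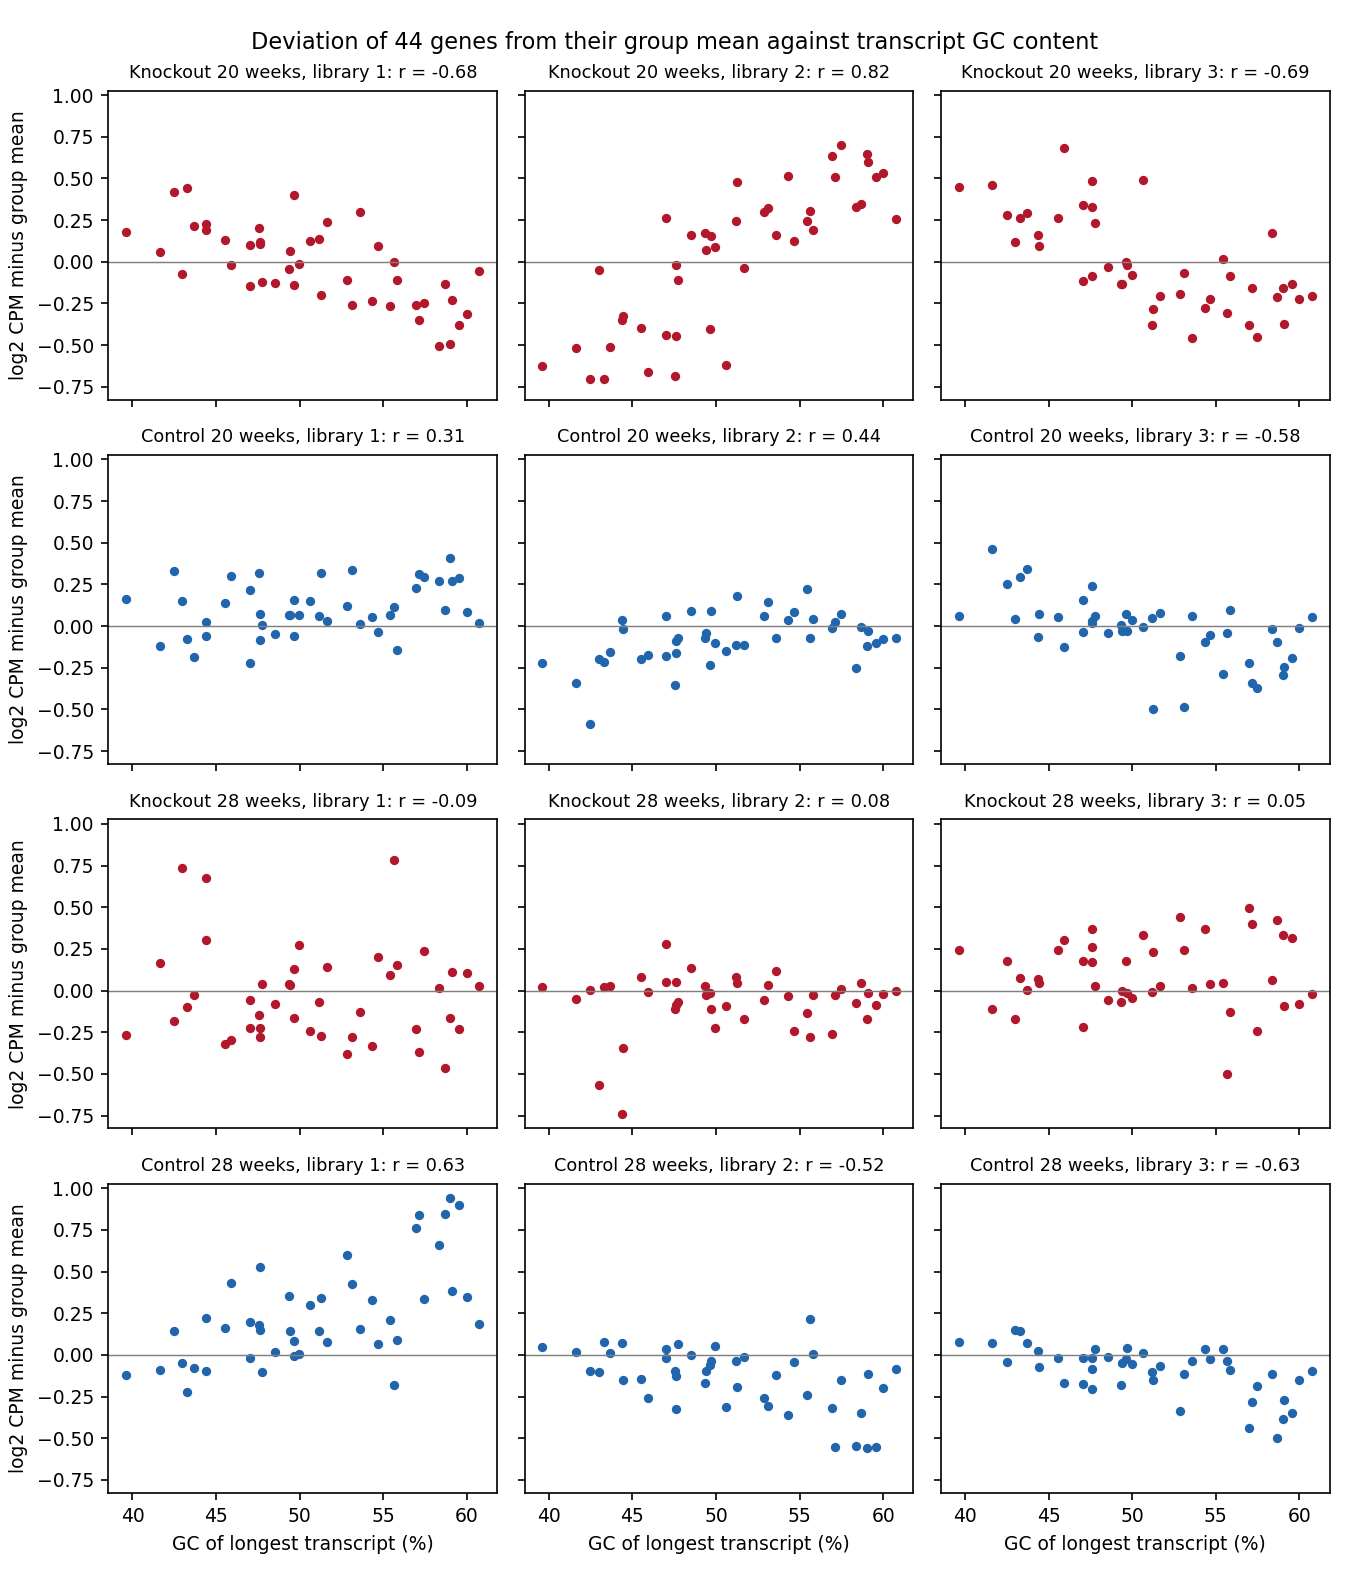
Deviation of each of the 44 tested members from its group mean (log2 CPM, vertical axis) against transcript GC content in percent (horizontal axis), one panel per library, with r printed in each panel title. The slope is steep in knockout libraries 1 and 2 at 20 weeks (r = -0.68 and 0.82) and flat in the 3 knockout libraries at 28 weeks. Slopes of both signs within a group follow from taking deviations from the group mean.

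Partner genes were followed in 8 lists of 77 genes, which hold subunits, readers, the H3K36 and DNA methylation enzymes and the supply of methyl groups and 2-oxoglutarate. At 28 weeks 4 rose and 13 fell, Nsd2 included, which is 22.1% of 77, beside 21.2% of all genes tested. At 20 weeks 1 rose and 1 fell, which is 2.60%, beside 9.92% of all genes tested. The list median was -0.15 at 28 weeks. Among 12 COMPASS and MLL partners, 1 rose and 1 fell at 28 weeks, which is 16.7%, beside 21.2% of all genes. Pagr1a, which joins the KMT2C and KMT2D complexes, rose with 44.5, 41.7 and 34.3 CPM in knockouts, against 26.8, 26.4 and 24.6 CPM in controls (log2 fold change 0.63, SE 0.14, adjusted p = 0.0229). Hcfc1, a docking protein of SET1 and MLL1 complexes, fell with 59.7, 72.5 and 71.1 CPM, against 147, 98.8 and 93.9 CPM (log2 fold change -0.74, SE 0.20, adjusted p = 0.0432). Jarid2, which helps to target PRC2, was the single call among 7 accessory subunits (14.3%, beside 21.2% of all genes). It had 15.4, 16.3 and 15.7 CPM, against 24.6, 21.8 and 23.7 CPM (log2 fold change -0.57, SE 0.12, adjusted p = 0.0210). None of 7 H3K9 readers and SETDB1 partners was called at either age, beside 21.2% of all genes at 28 weeks and 9.92% at 20 weeks.

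The LSD complexes and Polycomb repressive complex 1 (PRC1) held further calls at 28 weeks. Of 9 LSD1 partners, 2 fell and none rose, beside 11.9% and 9.33% of all genes. The CoREST scaffold genes Rcor1 and Rcor2 were those that fell, while the third, Rcor3, had 13.7, 15.8 and 17.9 CPM in knockouts, against 18.7, 13.5 and 13.4 CPM in controls (log2 fold change 0.057, SE 0.19, adjusted p = 0.871). Rcor1 had 35.4, 41.6 and 45.4 CPM in knockouts, against 68.98, 54.4 and 60.8 CPM in controls (log2 fold change -0.59, SE 0.15, adjusted p = 0.0357), and Rcor2 1.72, 2.01 and 1.54 CPM, against 6.19, 3.66 and 4.34 CPM (log2 fold change -1.43, SE 0.28, adjusted p = 0.0171). Of 16 PRC1 genes, 2 rose and 4 fell, which is 37.5%, beside 21.2% of all genes tested. Cbx8, a chromodomain reader of trimethylated H3K27, rose with 11.3, 12.1 and 9.06 CPM, against 5.68, 6.12 and 5.32 CPM (log2 fold change 0.92, SE 0.19, adjusted p = 0.0181), while the Polyhomeotic genes Phc1 and Phc2 fell, Phc1 to a mean of 20.8 ± 0.305 CPM, against 39.9 ± 9.68 CPM (SD, n = 3 each; log2 fold change -0.94, SE 0.19, adjusted p = 0.0183), and Phc2 to 163, 143 and 155 CPM, against 223, 210.2 and 215 CPM (log2 fold change -0.49, SE 0.11, adjusted p = 0.0216). Ring1, a ubiquitin ligase subunit of PRC1, rose at both ages. It had 23.98, 26.96 and 26.1 CPM in knockouts, against 15.6, 15.3 and 14.6 CPM in controls at 20 weeks (log2 fold change 0.76, SE 0.16, adjusted p = 0.0257), and 25.9, 23.5 and 23.2 CPM, against 16.8, 15.7 and 17.6 CPM, at 28 weeks (log2 fold change 0.53, SE 0.12, adjusted p = 0.0269).

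Of 6 DNA methylation enzymes, 1 was called at 28 weeks, which is 16.7%, beside 21.2% of all genes tested. It was the de novo methyltransferase gene Dnmt3b, which fell, at a low level of 2.60, 1.48 and 1.91 CPM in knockouts, against 4.10, 4.51 and 4.42 CPM in controls (log2 fold change -1.12, SE 0.27, adjusted p = 0.0324). The 12 genes of methyl-donor and 2-oxoglutarate supply had 1 rise and 3 falls, which is 33.3%, beside 21.2% of all genes tested. Shmt2, the mitochondrial serine hydroxymethyltransferase, had 67.7, 51.4 and 63.03 CPM, against 138, 106 and 108 CPM (log2 fold change -0.95, SE 0.16, adjusted p = 0.0104). D2hgdh, which clears the demethylase inhibitor D-2-hydroxyglutarate, had 6.58, 6.82 and 6.09 CPM, against 12.3, 10.7 and 11.8 CPM (log2 fold change -0.84, SE 0.16, adjusted p = 0.0149). Mat2b, the regulatory subunit of S-adenosylmethionine synthesis, was the gene that rose, with 137, 135 and 115 CPM, against 86.8, 86.4 and 87.6 CPM (log2 fold change 0.57, SE 0.11, adjusted p = 0.0152).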

How the data were processed

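RNA-seq of 12 libraries was analysed in 4 groups of 3. The authors deposited raw read counts per gene symbol and FPKM for each age, per the file headers; FPKM equalled count over total and a fixed length per gene. The build was GRCm38 (mm10), per the submitters' processing notes; aligner, counter and strand setting: not given in the sources used here. Counts were fitted in R 4.3.3 with edgeR 4.0.16 (TMM, filterByExpr, quasi-likelihood F test without a block; genotypes at each age alone, ages in one model of 12 libraries), with Benjamini-Hochberg adjustment over all genes tested and calls below 0.05. Alternatives used DESeq2 1.42.0, limma 3.58.1 on log2(FPKM + 0.1) or log2(FPKM + 1) for genes of at least 0.1 FPKM in 3 libraries, RLE scaling, other filters, single libraries left out and a GC correction (spline, 5 degrees of freedom, added after the data were seen). SE is the log2 fold change over the square root of F. The scripts were tested on simulated data modelled on these libraries. At 28 weeks edgeR recovered 0 of 64 genes changed 1.5-fold, 3 of 64 changed 2-fold and 35 of 66 changed 4-fold. At 20 weeks it recovered 0 of 64, 5 of 66 and 49 of 65. For the change of effect between ages it recovered 1 of 66 changed 2-fold. Far fewer genes were changed there than were called between genotypes, so these shares need not carry over. The absence of a call is thus not evidence of no change. Named genes were Nsd2, the called members, the 3 members of smallest p where none was called, the 5 highest by FPKM, and up to 3 called partners a list; Ring1 and the members nearest the threshold at 28 weeks, and others given as examples, were added after their values were seen. Members and lists were chosen with earlier results of these data known. Transcript GC is from GENCODE M21. No consistent pairing by replicate number was seen in correlations between libraries, which cannot exclude one.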

Additional observations from a re-analysis of the deposited data

How the results depend on the processing

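At 28 weeks, 5 members and 3183 genes were called. DESeq2 called 11 members (25.0% of 44, 2 of them higher), against 29.9% of all genes, and limma on log2(FPKM + 0.1) 8 (18.2%), against 23.0%; leaving out 1 library gave 1 to 5 members and 1266 to 3374 genes, and summing control libraries 2 and 3 gave 1 member and 1299 genes. Same-numbered libraries had correlations of -0.57, -0.10 and -0.47 at 28 weeks and -0.10, 0.32 and -0.17 at 20 weeks. No consistent pairing by number was seen, but correlations of deviations from group means cannot exclude one. With the replicate block, 0 members and 332 genes were called at 28 weeks (Setd5 adjusted p = 0.0782). At 20 weeks, 0 members and 1473 genes were called; DESeq2 gave 1 member and 2430 genes, the GC correction 1 member, and leaving out 1 library 0 members and 517 to 2023 genes. Age contrasts had 0 genes called; DESeq2 called 34 for the change of effect, 1 in controls and 40 (1 member) in knockouts, where leaving out 1 library gave 0 to 4. The log2 fold change at 20 weeks reversed for Kdm1a (0.022 with no low-count filter; -0.13 to 0.11 leaving out 1 library) and for Smyd2 (-0.059 with a filter of 1 CPM in 3 libraries, -0.090 with log2(FPKM + 0.1), -0.086 with log2(FPKM + 1), -0.010 with the GC correction, -0.035 in the 12-library model, -0.092 to 0.076 leaving out 1 library). The cause was not tested. At 28 weeks all 5 called members kept their direction under every alternative run. At 20 weeks the members' sign balance moved with scaling: 31 of 44 were negative on FPKM and 27 of 44 with the 1 CPM filter, against 21 of 44.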
